A study of Saccharomyces cerevisiae with 12 samples.

Results

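The genes described here are 29 box H/ACA small nucleolar RNA genes and 3 spliceosomal RNA genes transcribed by RNA polymerase II, LSR1, SNR14 and SNR19, of budding yeast. They are 32 of the 6431 nuclear genes annotated by RefSeq on assembly R64, whose sequence is that of build sacCer3, and all 32 were matched by symbol. The genes were listed by kind of RNA, with earlier results of these data known. Each was examined with 250 bp on either side, here called its window, and a gene was counted as having a peak when a deposited peak overlapped its window by at least 1 bp.

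Chromatin immunoprecipitation and sequencing (ChIP-seq) of Scc2 was carried out on W303 cells of mating type MATa that carried SCC2-13MYC::NAT, MED14-AID*-6FLAG::HYG and ADH1-OsTIR1 at ura3-1. All samples share this genotype, so the cultures without auxin also carry the tagged Scc2, the degron-tagged Med14 and the F-box protein OsTIR1. Auxin at 1 mM was used to deplete Med14 in 3 cultures, and 3 cultures had no auxin by their titles and treatment labels. Per the labels' protocols, which repeat the auxin step for every sample, cells were arrested with alpha-factor, held for an additional 1.5 hours, and released into nocodazole for 2 hours. Whether a difference comes from auxin or from the loss of Med14 cannot be told apart in this design. Each of the 6 immunoprecipitates has its own peak list, and the 6 total chromatin samples have none. The lists are called here the first, the second and the third list without auxin and with auxin, after their replicate numbers.

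Box H/ACA small nucleolar RNAs form particles with the proteins Cbf5, Nhp2, Nop10 and Gar1 and guide the conversion of chosen uridines in ribosomal RNA to pseudouridine. SNR30 is an exception, being needed for the cleavages that release the small subunit ribosomal RNA. LSR1 encodes the U2 RNA, which pairs with the branch point of introns, SNR19 the U1 RNA, which pairs with the 5′ splice site, and SNR14 the U4 RNA, which pairs with U6. Scc2, together with Scc4, loads the cohesin ring onto chromosomes, and Med14 is the scaffold subunit of Mediator, a coactivator of RNA polymerase II.

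The lists held 2115, 2111 and 1502 peaks without auxin and 964, 1324 and 1569 with auxin. Read depth is unknown, so the values below are presence, extent and position of peaks and not amounts of Scc2, and for a gene listed without one it is only known that no peak was called. The labels describe a culture for each replicate.

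Without auxin, nearly all of these genes had a Scc2 peak in their windows, and with auxin few of them did. Of the 32 genes, 29, 29 and 25 had a peak in the lists without auxin, or 27.7 ± 2.31 genes (SD, n = 3), and 4, 4 and 9 had one in the lists with auxin, or 5.67 ± 2.89 genes (SD, n = 3). No list with auxin reached the count of any list without. With each peak assigned only to the gene nearest its summit, 13, 14 and 11 of the 32 genes had one without auxin. With auxin 2, 1 and 6 did under that rule. With every list cut to its 964 most significant peaks, the counts were 26, 26 and 23 without and 4, 4 and 4 with auxin, so the mean difference was -21.0 genes at equal list length against -22.0 with the full lists. With the full lists, peaks were found at 2191, 2207 and 1715 of all 6431 nuclear genes in the lists without auxin and at 1097, 1450 and 1708 in those with auxin, and there the third list with auxin was close to the third list without. No count over all nuclear genes is given at equal list length or with each peak assigned to the nearest gene. The counts under those rules therefore have no such background.

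A peak was counted as missing with auxin when it was called in at least 2 of the 3 lists without auxin and in at most 1 of the 3 lists with auxin. Such calls in at least 2 lists without auxin were found for 29 of the 32 genes and for 31.7% of all nuclear genes. For 25 of the 32 the peak was missing with auxin (78.1%), against 13.6% of all nuclear genes. Taken over the genes so called without auxin, it was missing for 25 of 29 (86.2%), against 43.1% of all such nuclear genes. The peak was in all 3 lists without and in no list with auxin for 16 genes, against 5.43% of all nuclear genes. Among the other 47 snoRNA genes, most of which encode box C/D RNAs, it was missing for 39 of the 46 so called, and among tRNA genes for 0 of 272.

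The share of each window that lay under peaks gave the same picture. It was lower in every list with auxin than in every list without for 24 of 32 genes, against 11.9% of all nuclear genes, and higher in every list with auxin for 0 of 32, against 2.83%. Genes without a peak could not be called either way, and 3635 of the 6431 nuclear genes had none in any list. Among the other 47 snoRNA genes the share was lower in every list with auxin for 42. The median over the 32 genes was 63.2% of the window without and 0.0% with auxin. Over all nuclear genes both medians were 0.0%. In an exact two-sided permutation test of each gene over the lists, 3 lists against 3 cannot go below p = 0.1. These 24 genes reached it, as did 14.7% of all nuclear genes, and their p adjusted by Benjamini-Hochberg over 6431 genes was 0.68, so no single gene passed the threshold of 0.05.

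**Figure D1:**
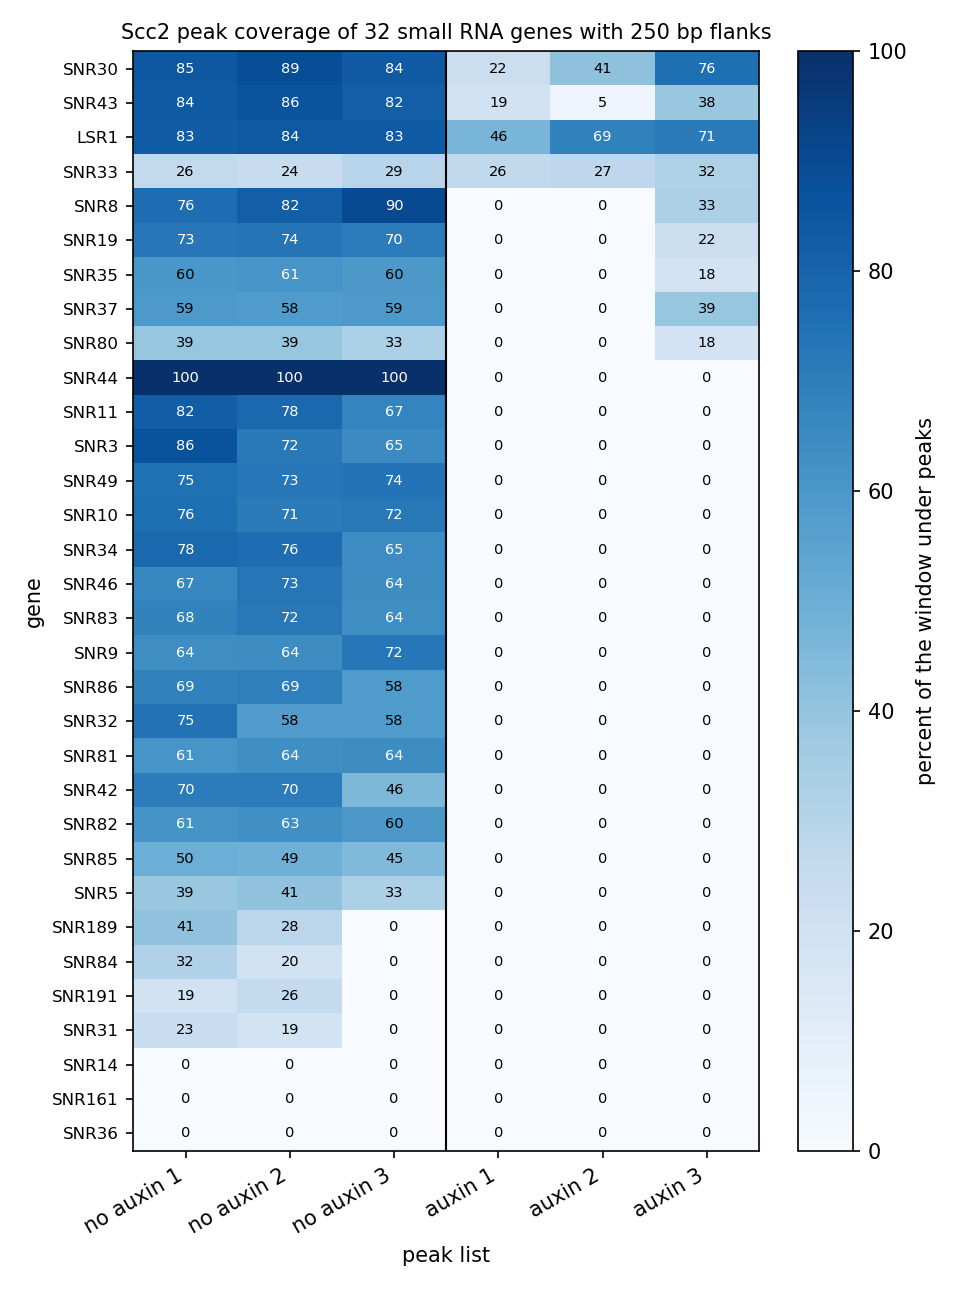
Percent of each gene's window (gene plus 250 bp on either side) under Scc2 peaks, for 32 genes (rows) in the 6 peak lists (columns), with the value printed in each cell and shaded from 0 to 100. The 25 genes of the upper rows had a peak in all 3 lists without auxin, and those with any peak with auxin are the top 9, of which 5 had it in the third list with auxin alone.

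The genes with a peak in every list without auxin and in none with auxin include several whose peaks ranked high by the fold enrichment that the authors' peak caller gave. SNR9, a guide RNA gene on chromosome XV (407948 to 408134, minus strand), had 63.9, 64.2 and 72.5% of its window under peaks without auxin and 0.0% in each list with auxin. Its gene body was fully covered in all 3 lists without auxin. SNR3 on chromosome X (663749 to 663942, plus strand) had 86.5, 71.8 and 65.1% of its window covered without auxin and none with auxin. SNR11 on chromosome XIII (652275 to 652532, plus strand) had 82.1, 78.4 and 67.3% without auxin and likewise none with auxin. For these 3 genes the groups were fully apart. With auxin the nearest peak lay at least 15971 bp from SNR9 and 11987 bp from SNR3, but 771 bp from SNR11 in the first list.

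The same held for SNR34, which guides modification of the large subunit ribosomal RNA and lies on chromosome XII (899180 to 899382, plus strand), with 77.8, 76.5 and 64.6% of its window covered without auxin. SNR32 on chromosome VIII had 74.6, 57.7 and 58.4%. SNR42 on chromosome XI had 70.4, 70.4 and 45.7%, the third list being the lowest. All 3 had no peak in their windows with auxin. SNR81, which guides pseudouridines in both ribosomal RNA and the U2 RNA, had 60.9, 63.6 and 64.2% of its window covered without auxin, SNR83 had 68.0, 72.1 and 64.0%, and SNR5 had 38.8, 40.6 and 33.0%. SNR86, the longest of the snoRNA genes here at 1004 bp, had 68.7, 69.4 and 58.4%. All of these windows were uncovered with auxin.

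With auxin, SNR30, SNR43, SNR33 and LSR1 had a peak in all 3 lists, and no other gene had one in more than 1 list. SNR30, on chromosome XII (198784 to 199389, plus strand), had 84.7, 88.6 and 83.9% of its window under peaks without auxin and 22.3, 41.2 and 75.5% with auxin. The groups did not overlap, and the difference (auxin minus no auxin) was -39.4 percentage points (exact two-sided permutation p = 0.1). The highest-fold peaks were 1334, 1429 and 1154 bp wide without and 247, 456 and 835 bp wide with auxin, and their summits lay within the gene in all 6 lists. With auxin the peak covered 40.8, 75.2 and 98.2% of the gene itself, and the 250 bp downstream, fully covered in each list without auxin, were covered to 0.0, 0.0 and 96.0%.

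LSR1, the U2 RNA gene on chromosome II (680688 to 681862, minus strand), had 82.7, 84.2 and 83.3% of its window covered without auxin and 46.5, 68.6 and 71.0% with auxin. The difference was -21.4 percentage points (exact two-sided permutation p = 0.1). At 1175 bp it is the longest gene of the 32. Without auxin it lay under 1 broad peak of 1534, 1536 or 1601 bp. The first list with auxin had 3 separate peaks of 526, 310 and 298 bp, and the widest of these had its summit 448 bp past the 3′ end of the gene. The second and the third list with auxin still had a broad peak, of 1492 and 1546 bp, and the second also had 1 of 347 bp.

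SNR43, a guide RNA gene on chromosome III (107504 to 107712, minus strand), had 83.5, 86.3 and 81.7% of its window covered without auxin and 19.3, 4.7 and 38.5% with auxin (difference -63.0 percentage points, exact two-sided permutation p = 0.1). In the first and second lists with auxin the peak did not touch the gene, its summit lying at -283 and -379 bp from the start, on the side of the coding gene LDB16. In the third list it covered 79.4% of the gene. When a peak had to touch the gene itself, SNR30 and LSR1 were the only genes with one in at least 2 lists with auxin.

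SNR33, also on chromosome III (142364 to 142546, minus strand), had a narrow peak in its window that differed little between the groups. It covered 25.8, 23.9 and 29.3% of the window without and 26.2, 27.4 and 32.2% with auxin (difference 2.3 percentage points, exact two-sided permutation p = 0.4). The groups overlapped. The gene itself was uncovered in all 6 lists, and the summits lay at -192, -192 and -207 bp from its start without and at -195, -184 and -193 bp with auxin, negative values being upstream. In all 6 lists the summit fell inside the tRNA gene SUF16, 154 bp from SNR33.

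Another 5 genes had a peak in all 3 lists without auxin and in the third list with auxin alone, the longest of the 3 lists with auxin. SNR19, the U1 RNA gene on chromosome XIV (230105 to 230672, minus strand), had 72.6, 73.5 and 70.5% of its window covered without auxin and 0.0, 0.0 and 22.4% with auxin. SNR8 had 76.4, 81.9 and 89.7% without and 32.6% in the third list with auxin. SNR37 had 59.0, 58.5 and 59.1% without and 39.3% in that list. SNR35, which guides a pseudouridine of the small subunit ribosomal RNA, had 59.8, 60.8 and 59.5% without and 18.2% in that list, and SNR80 had 39.2, 39.3 and 32.9% without and 18.2%. In each of these genes the values with auxin stayed below all values without. Among the 964 most significant peaks of that list were those of SNR37, SNR30, SNR33 and LSR1, so at equal list length SNR8, SNR19, SNR35 and SNR80 had no peak with auxin, and SNR43 had one in the first and the second list alone.

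At the other end, SNR14, SNR36 and SNR161 had no peak in any of the 6 lists. SNR14, the U4 RNA gene on chromosome V (167427 to 167586, minus strand), lay 3649 bp or more from the nearest peak in each list. For SNR36 that distance was at least 1578 bp, and for SNR161 at least 1475 bp. Thus of the 3 spliceosomal RNA genes, LSR1 had a peak in all 6 lists, SNR19 in 4 and SNR14 in none. The genes SNR31, SNR84, SNR189 and SNR191 had a peak in the first and second lists without auxin only. Their windows were covered to 23.4 and 18.6%, 31.7 and 19.5%, 40.6 and 28.3%, and 19.1 and 25.7%, and the third list, which is shorter, had none. Of the peaks outside a gene, that at 217 bp from SNR43 in the second list with auxin was the last inside the window, and those at 437 bp from SNR191 and 442 bp from SNR31 in the third list without auxin were the first outside it.

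Scc2 peaks lay over the transcribed part and the 3′ side of these genes and seldom over the 5′ side. In the lists without auxin, 5, 6 and 5 of the 32 genes were under a peak at 100 bp upstream of the gene start, 13, 12 and 13 at the start, and 24, 23 and 21 at 200 bp past it. Counted from the gene end, 26, 25 and 22 were under a peak 100 bp downstream and 6, 7 and 4 at 600 bp downstream. The highest-fold peak of each gene began, at the median, within 8 bp of the gene start in each list (-2, 2 and -8 bp) and ended 431, 407 and 422 bp past the gene end. These highest-fold peaks were 648, 658 and 663 bp wide at the median, and all peaks in the windows 648, 639 and 611.5 bp. Over all peaks of the same lists the medians were 418, 424 and 434 bp. A wider peak is more likely to overlap a window, so these widths are not compared like for like.

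**Figure D2:**
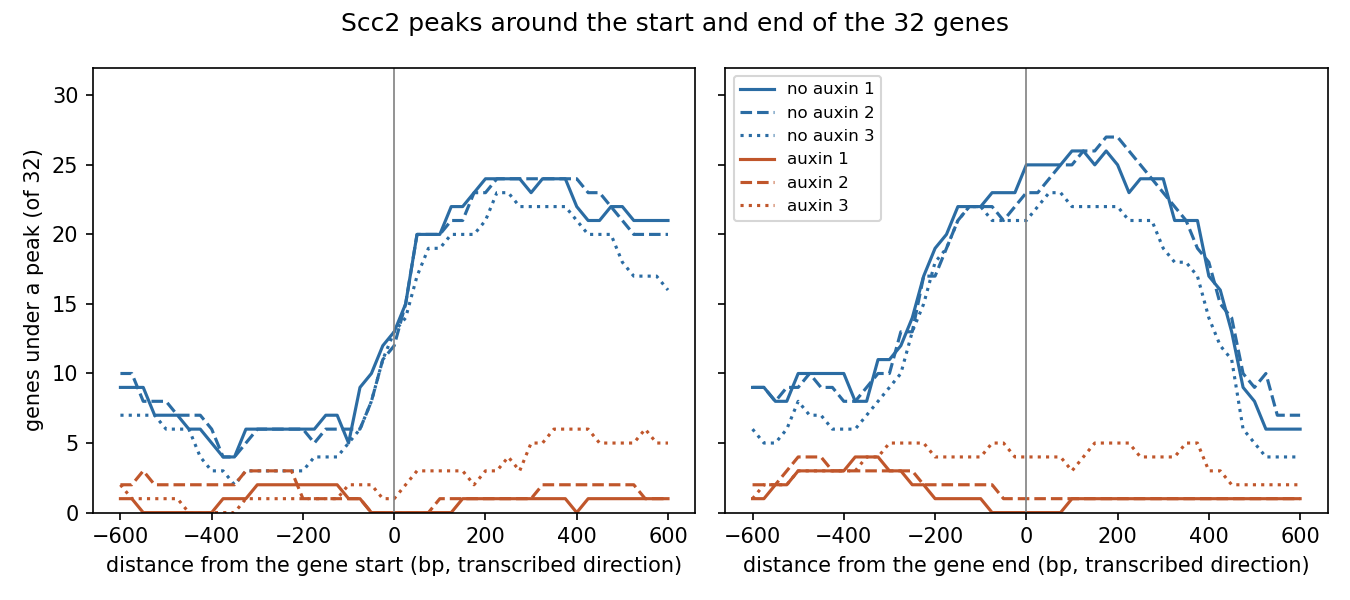
Number of the 32 genes under a peak (vertical axis) at each distance in bp from the gene start (left) and gene end (right), read in the transcribed direction, for the 3 lists without auxin (blue) and with auxin (orange). Without auxin the count climbs at the gene start, from 5 or 6 genes at 100 bp upstream, and lies between 21 and 27 genes in each list from 100 bp before to 200 bp past the gene end.

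The mean share under peaks was 20.8 ± 3.07% for the 250 bp upstream, 64.1 ± 2.64% for the gene and 75.3 ± 5.50% for the 250 bp downstream without auxin (SD over lists, n = 3 each). With auxin it was 3.7 ± 0.55%, 6.7 ± 5.16% and 6.2 ± 6.20%. In the first list without auxin the downstream side was more covered than the upstream side for 25 genes and less for 3, SNR33, SNR83 and SNR191. The second list gave the same numbers, and the third gave 22 and 2. SNR44 was fully covered on both sides. The other 47 snoRNA genes, many of which lie in clusters or in introns, had 65.6 ± 4.83% upstream and 87.3 ± 5.02% downstream, and tRNA genes had 57.9 ± 1.07% and 65.5 ± 1.59% without auxin (SD over lists, n = 3 each). Coding genes had 4.2 ± 0.32% and 7.8 ± 0.29% (SD over lists, n = 3 each). In these classes too the downstream side was more often the more covered in the first list without auxin. It was so for 27 other snoRNA genes against 5, 157 tRNA genes against 104 and 747 coding genes against 317. Differences between these classes were not tested.

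**Figure D3:**
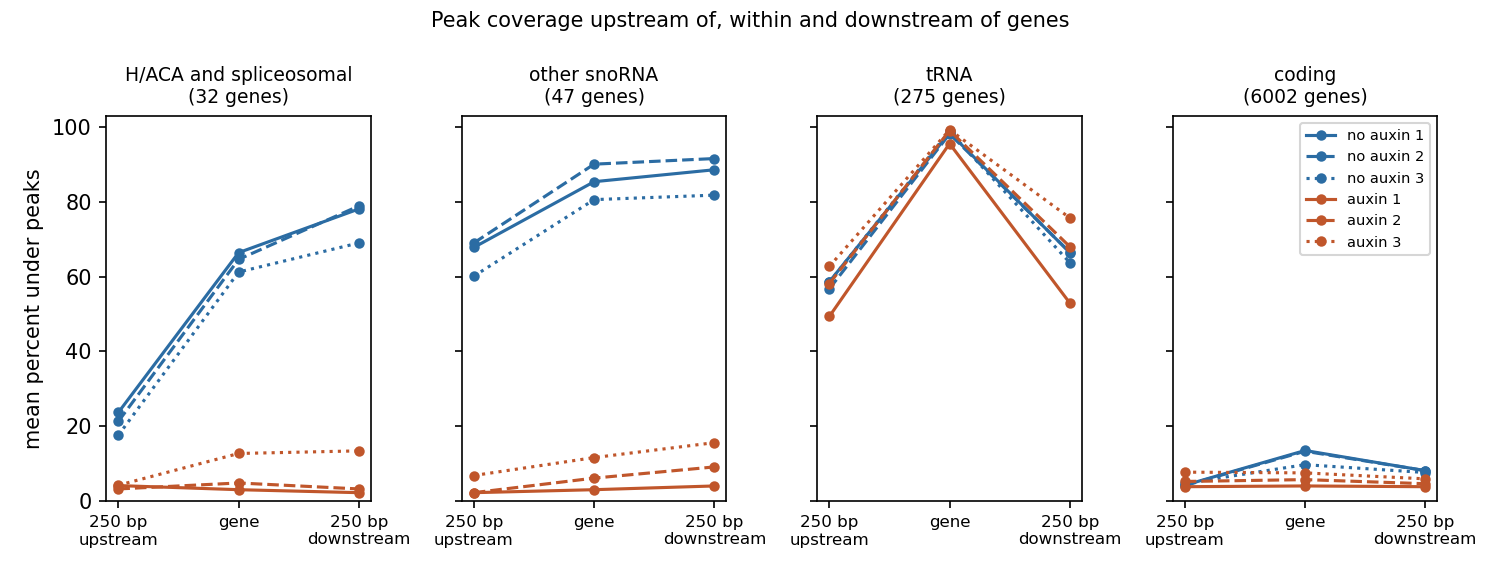
Mean percent under peaks of the 250 bp upstream, the gene and the 250 bp downstream, in each of the 6 lists (lines), for 4 classes of genes (panels). In the panel of 32 genes the lists without auxin rise from 17.5 to 23.6% upstream to between 69.0 and 78.9% downstream, and the lists with auxin stay at or below 13.3%.

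The summits lay on the same side. Over all peaks in the windows, the median summit was 240.6 ± 16.0 bp past the midpoint of the gene in the lists without auxin (SD over lists, n = 3). Of the highest-fold peaks, 17 of 29, 17 of 29 and 16 of 25 had the summit downstream of the gene, 9, 9 and 7 inside it and 3, 3 and 2 upstream. The summit lay within the gene in all 3 lists at SNR8, SNR19, SNR30, SNR81, SNR83 and SNR85. With auxin the summits of 4, 4 and 9 genes gave a median of -93.4 ± 173.9 bp from the midpoint, a spread that spans both sides of the gene and that SNR33 and SNR43 weigh on.

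**Figure D4:**
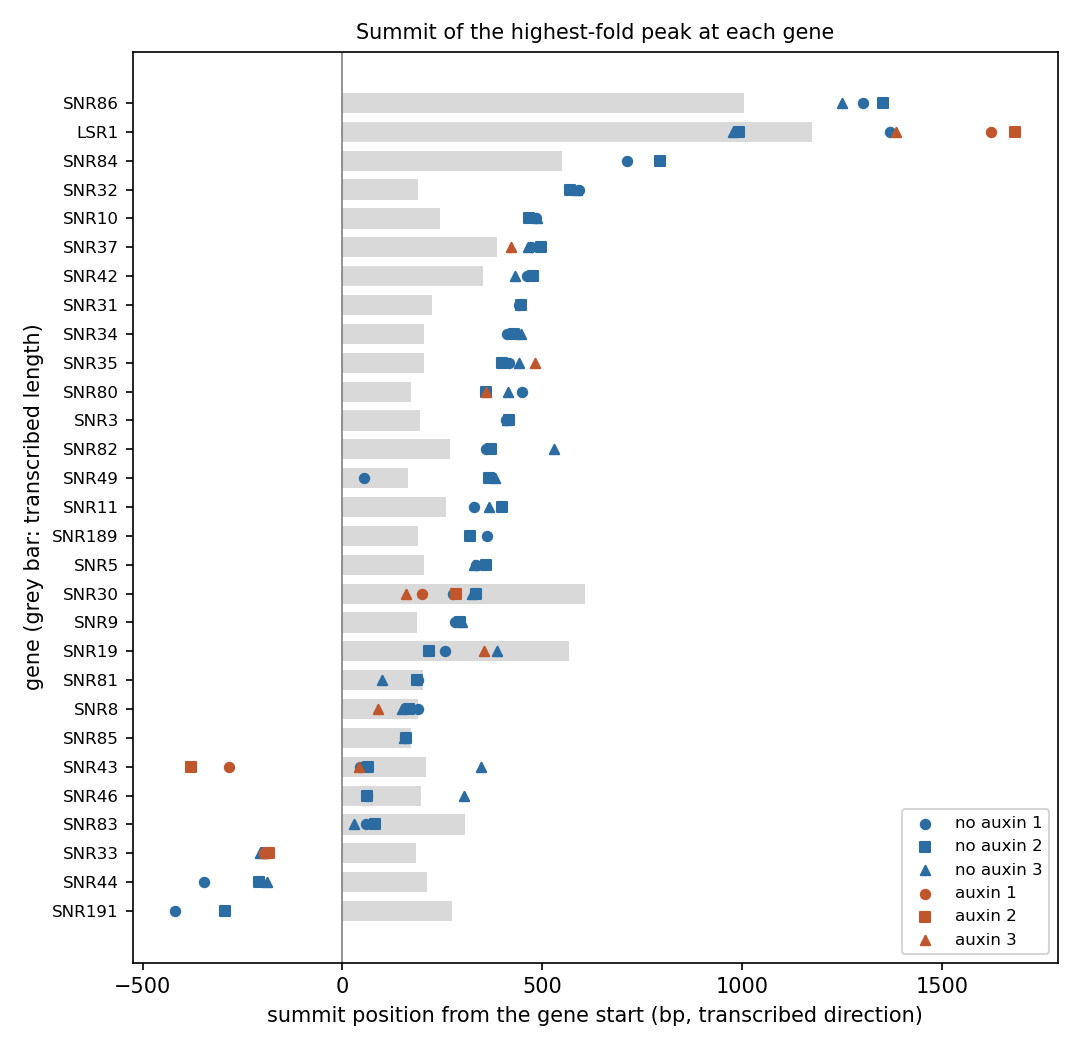
Summit of the highest-fold peak at each of the 29 genes with a peak, in bp from the gene start in the transcribed direction, with the transcribed length as a grey bar, lists without auxin in blue and lists with auxin in orange. Most blue points lie past the end of the grey bar, and the 3 genes with all summits upstream are SNR33, SNR44 and SNR191.

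Many of these downstream summits lay within the next coding gene. The next coding gene downstream was convergent, so that both genes end towards each other, for 20 of the 32 and on the same strand for 12. Of the 19 convergent genes called in at least 2 lists without auxin, 11 had most of their summits inside that coding gene. None of the 10 genes with a same-strand neighbour and such a peak did, but those neighbours were farther away, at a median gap of 340 bp against 139.5 bp for the convergent ones. A coding gene that overlaps the small RNA gene was not counted as the next one. The highest-fold summits of SNR191, and most of those of SNR44, lay inside the coding gene that each overlaps. Orientation and distance cannot be told apart here, and the counts were not tested against each other. At SNR9 the summit was 96, 109 and 112 bp past the gene end and inside GLO4, a mitochondrial glyoxalase gene. At SNR3 it was 217, 225 and 218 bp past the end and inside EFM3, a lysine methyltransferase gene, and at SNR11 it was 72, 141 and 110 bp past the end and inside CMC4. At SNR86 it lay 299, 349 and 248 bp past the end in FAA4, an acyl-CoA synthetase gene, under peaks of 3057, 3097 and 1599 bp. At SNR32 it lay 404, 383 and 399 bp past the end in the ribosomal protein gene RPL42B. A peak in such a place can belong to the coding gene, to the small RNA gene or to both, and the lists alone cannot tell these apart.

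By annotation, 3 genes overlapped a coding gene, 21 lay within 250 bp of one and 8 were free-standing. The peak was missing with auxin for 3 of the 3 that overlapped a coding gene, for 14 of the 18 near one that were called in at least 2 lists without auxin, and for 8 of the 8 free-standing genes. These counts depend on the 250 bp limit. With near set at 100 bp the peak was missing for 6 of 7 near and 16 of 19 free-standing genes, and SNR30, SNR33 and LSR1, which have a peak in every list with auxin, then counted as free-standing. By the 250 bp limit, 4 of the 8 free-standing genes, SNR8, SNR19, SNR37 and SNR80, had a peak in the third list with auxin. Median window coverage without auxin was 73.1% for the overlapping, 62.2% for the near and 65.4% for the free-standing genes, and these shares were not tested against each other. Of the highest-fold peaks without auxin, the summit was inside the gene for 13 of 23 at free-standing genes, 12 of 52 at near genes and 0 of 8 at overlapping genes. These peaks count the same 8, 18 and 3 genes once per list, and the shares were not tested against each other.

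The overlapping genes differed among themselves. SNR44 lies in an intron of RPS22B, a gene for a small subunit ribosomal protein, on chromosome XII (856710 to 856920, plus strand). Its window and the whole RPS22B span were covered to 100% in each list without auxin and to 0.0% in each list with auxin, and the summits lay at -347, -209 and -189 bp from the start of SNR44. SNR191 lies in an intron of NOG2, which encodes a GTPase of large subunit assembly, on chromosome XIV (721938 to 722211, minus strand). Peaks covered 62.6, 65.3 and 26.4% of NOG2 without auxin and none of SNR191 itself, so that its call came from peaks in other parts of the host. SNR10 on chromosome VII (345986 to 346230, plus strand) overlaps the reading frame YGL088W and had 76.1, 71.0 and 72.1% of its window covered without auxin and none with auxin. Its summits lay 240, 222 and 243 bp past its end, inside the downstream gene MMS2.

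Among genes with an RNA polymerase III gene within 1000 bp, of which there were 2, SNR46 stood against SNR33. SNR46 had 66.6, 73.3 and 64.3% of its window covered without auxin and 0.0% in each list with auxin. The tRNA gene near SNR46 lies 721 bp away, outside the window, whereas SUF16 is 154 bp from SNR33. With auxin the nearest peaks lay 572, 540 and 582 bp from SNR46, also outside its window. With both genes left out, the peak was missing with auxin for 24 of 30.

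Within each list, the peaks at these genes ranked above the middle by the authors' fold enrichment without auxin. The median gene's highest-fold peak had a higher fold than 81.6, 79.3 and 64.3% of the peaks of the first, the second and the third list without auxin. SNR30 ranked highest of the 32 genes, above 98.6, 99.3 and 95.6% of the peaks in each list. High rank was shared by genes with and without a peak after auxin. SNR9 and SNR3, with none, stood above 97.4 and 96.7% of the peaks in the first list without auxin, and LSR1 and SNR43, with one in every list, above 80.2 and 81.6%. At the median, however, genes with no peak with auxin ranked lowest in each list without auxin, at 77.8, 78.2 and 54.8%. Those with a peak in 1 list with auxin stood at 87.0, 87.3 and 70.2%. The 4 with a peak in every list with auxin stood at 83.6, 79.4 and 74.0%. These differences were not tested. In the lists with auxin the 4, 4 and 9 genes that had a peak stood at medians of 29.7, 55.1 and 36.3%. Ranks describe each list alone, since the lists differ in length.

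**Figure D5:**
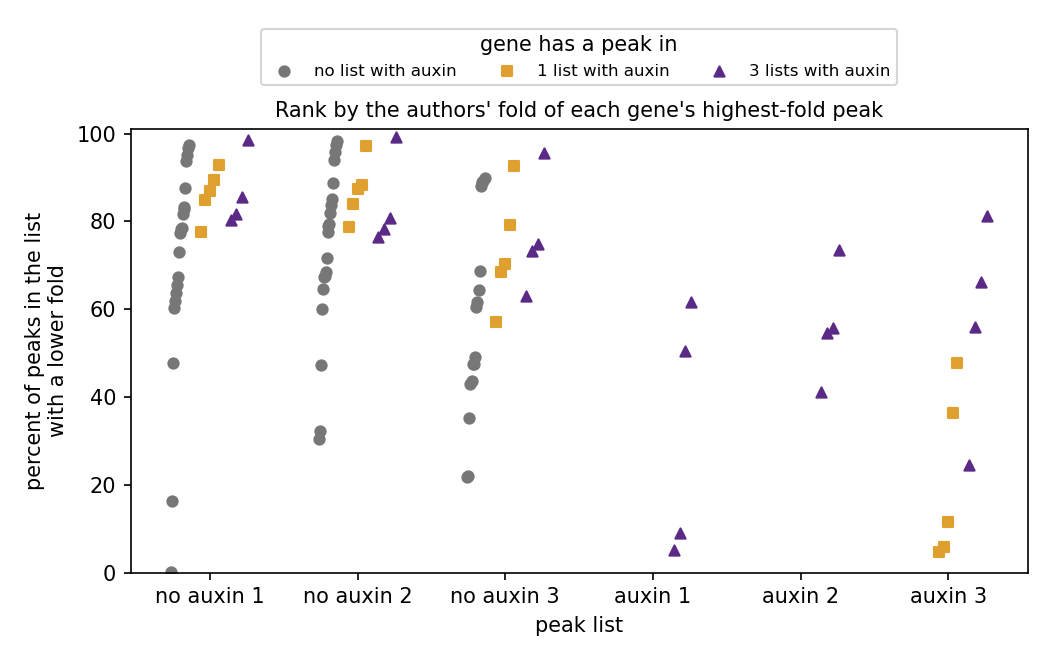
Percent of the peaks of the same list with a lower fold enrichment, a value deposited by the authors, than the highest-fold peak of each gene (points), by list, with marker shape for the number of lists with auxin in which the gene had a peak. In the lists without auxin the 20 genes with no peak with auxin (circles) spread from 0.2 to 98.2% and overlap the other genes.

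Genes for proteins that act with these RNAs had peaks at a share near that of all nuclear genes. Of 22 listed coding genes for box H/ACA proteins, assembly factors, transcription end and processing factors, and Sm proteins, 6 were called in at least 2 lists without auxin, against 31.7% of all nuclear genes. No list held a peak for 12 of the 22, against 3635 of 6431 nuclear genes. The peak was missing with auxin for 4 of the 22, CBF5, NRD1, NAB3 and SEN1, against 13.6% of all nuclear genes, and the others of the 6 were RRP6 and RNT1. Of nuclear genes so called without auxin, it was missing for 43.1%, so these few genes give no result of their own. Coverage was lower in every list with auxin for 2 of the 22, against 11.9% of all nuclear genes, and higher for 0. CBF5, the pseudouridine synthase of the box H/ACA particle, had 62.2 and 67.3% of its coding span under peaks in the first and second lists without auxin and 0.0% in the other 4. NRD1, whose product ends transcription of small RNA genes together with Nab3 and Sen1, had 69.2, 54.1 and 43.7% without auxin and 0.0% in each list with auxin. RRP6, the nuclear exosome nuclease that trims snoRNA ends, had 91.2, 88.7 and 93.6% without and 50.1, 59.4 and 100% with auxin, and the groups overlapped. GAR1 had peaks in the third list without auxin and in all 3 with auxin, at 45.5% against 42.2, 37.5 and 34.6%. Of the 7 Sm protein genes, 6 had no peak in any list.

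Among the other spliceosomal RNA genes, SNR7-L, the U5 RNA gene annotated in overlapping forms, had 100, 93.9 and 89.7% of its span covered without auxin and 0.0% in each list with auxin. SNR6, the U6 RNA gene, which is transcribed by RNA polymerase III, was fully covered in all 3 lists without auxin and in the second and the third list with auxin, and uncovered in the first.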

How the data were processed

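The submitters' processing notes name Bowtie2 2.4.2, MACS2 2.1.1.20160309 and the build sacCer3. For the peak threshold and the control, nothing is given in the sources used here. The authors deposited 1 narrow peak list per immunoprecipitate, with a fold enrichment (a ratio), −log10 p and −log10 q values, and a whole-number score, which was not used. Positions and summits are deposited in bp. Calibration by fission yeast enters no value here, since signal tracks were not used.

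Genes came from a RefSeq R64 table, with strand read from systematic names. Coverage, presence and summits were computed with Python 3.11.15, numpy 2.4.6 and pandas 2.3.3, adjusted p-values with scipy 1.17.1, and the counting was tested on simulated lists with known answers. Groups and replicate numbers came from sample titles. Tests were exact permutations over 20 assignments of the lists.

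The genes, lists and rules were chosen with earlier results of these data known, and flank coverage, neighbour orientation and positional counts were added after the values were seen. Genes named in full were the 4 of SNR30, LSR1, SNR14 and SNR19, those overlapping a coding gene, those with a peak in at least 2 lists with auxin or in under 2 without, up to 10 others present without and absent with auxin by median fold, and the 3 with summits farthest from the gene. Other members were named after their values were seen. No promoter or RNA sequences were used here. Alternatives were windows of 0, 100 and 500 bp, 964 peaks per list, −log10 q of at least 5, stricter overlap rules, assignment to the nearest gene, other context distances, and leaving out each list.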

Additional observations from a re-analysis of the deposited data

How the results depend on the processing

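The difference in genes with a peak (-22.0), the 25 genes whose peak was missing and the 24 with lower coverage changed by less than 1.5 times under windows of 0, 100 or 500 bp, 964 peaks per list, −log10 q of at least 5, a summit in the window, or a peak over 50% of the gene. Assigning each peak to the gene nearest its summit moved them to -9.67, 13 and 9. No share of all nuclear genes is given for that rule. By context, that rule gave 0 overlapping and 5 near genes with a missing peak. Near set at 100 bp gave 6 near and 16 free-standing genes, and at 500 bp gave 22 and 0. With coding genes of the same strand only, they were 5 and 17. Without 1 list, the difference was -23.67 to -21.17, missing peaks 21 to 25 (3 overlapping genes became 2 at the lowest, near 12 to 14, free-standing 7 to 8) and lower coverage 24 to 28. By its rule, the count with lower coverage can only stay or rise when a list is left out. The count of missing peaks likewise cannot fall when a list with auxin is left out. Those parts of the ranges were fixed in advance and show no stability. The summit offset without auxin was 356.3 bp from the gene start, 104.0 bp from the edge, 222.8 bp with 964 peaks and 215.4 bp with 500 bp windows, and 232.6 to 248.6 bp without 1 list. With auxin it turned positive from the gene start (179.7 bp) and with 0 bp windows (173.9 bp), and it was -175.9 to -2.6 bp without 1 list, the value nearest 0 being without the second list with auxin. Window coverage of all 29 genes with a peak kept its direction, or was 0, in 348 of 348 comparisons. Of the 12 comparisons for each gene, the 1 with the replicate number as a block repeats the main difference and could not reverse. For genes with no peak with auxin, leaving out a list with auxin also repeats it, so this count is partly fixed in advance.

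Whether replicate numbers pair the lists was not tested. Deviations of the 32 genes from their group means correlated at r = 0.34, 0.07 and 0.34 between lists of the same number. Genes with no peak with auxin have no deviation there, so these values cannot decide it. With the replicate number as a block, 24 genes were lower with auxin in every pair, and the exact sign-flip permutation test of a gene gave at least p = 0.25, the smallest that 3 pairs allow. No group has enough samples to test for outlying lists. Peak lists hold no counts, so depth limits what a missing peak shows.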
